A study of Mus musculus with 12 samples.

Results

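The pancreas of mice lacking Mist1 (Mist1KO) was set beside that of wild type mice, both after injections of saline only, without the secretagogue caerulein. The 6 arrays, 3 of each genotype, were taken by title from the 12 of the series, and all 22452 probe sets that are not controls were read on them. The other 6 arrays carried the same genotypes after caerulein, a peptide that mimics the hormone cholecystokinin, makes acinar cells secrete and in excess causes pancreatitis. They were used for the pooled estimate of spread and for a second reading of the genotype difference. Per the labels, all mice were males of 2 to 4 months that received hourly injections for 4 hours and were killed at the end of that course. About 10 µg of total RNA from whole pancreas was labelled for each array. The wild type mice were C57BL6, while for the Mist1KO mice neither allele nor background strain is stated. A difference of strain, if there was one, cannot be told apart from the loss of Mist1 on the saline or the caerulein arrays. The design text calls the pancreata biological replicates; litters are not stated.

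The product of Bhlha15, Mist1, belongs to the basic helix-loop-helix family of transcription factors and is made in cells with a large regulated secretory output, among them the acinar cells that make most of the pancreas and its digestive enzymes. It binds E-boxes, short palindromic DNA motifs, and is known for setting up the granules, organelles and junctions of the mature acinar cell rather than for switching on the enzyme genes themselves. Caerulein and its natural counterpart act on these cells through the cholecystokinin receptor and calcium.

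Values are deposited signal intensities. Differences are log2, Mist1KO minus wild type, on the log2(intensity + 18.7) scale ± SE with n = 3 arrays per group. The offset, the 20th percentile of all values, makes folds of dim genes smaller than the ratio of their signals. A gene rose or fell where its p-value in limma, adjusted by the Benjamini-Hochberg method over 15716 probe sets, was under 0.05. Each gene was read by its brightest probe set. A gene named as risen or fallen kept that call in all 21 other fits in which it was tested, 12 of which left out 1 array, unless the sentence gives the highest adjusted p reached when an array was left out.

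E-boxes stand in the windows around a transcript start of some of the genes with the largest changes, and 4 of these are printed to show the sequence the factor is known for. Of the 9481 named genes tested, 7642 had at least 1 window of 250 bases before to 50 after a transcript start (RefSeq, GRCm38.p6), and 1572 had several, 1 per start. The motif CATATG, the same on both strands, is in capitals. Each line runs in the direction of its gene.
Gjb1: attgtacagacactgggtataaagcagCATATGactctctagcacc
Reg3g: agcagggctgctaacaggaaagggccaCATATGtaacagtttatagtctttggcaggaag
Smarca1: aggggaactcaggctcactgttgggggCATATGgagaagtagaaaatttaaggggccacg
Asb11: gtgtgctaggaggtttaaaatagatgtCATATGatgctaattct
They lie at chrX:101383686-101383731 on the + strand, chr6:78469015-78469074 on the - strand, chrX:47892738-47892797 on the - strand and chrX:164436950-164436993 on the + strand. The motif begins 19, 173, 157 and 17 bases before the transcript starts of these windows, at 101383732 (Gjb1), 78468874 (Reg3g), 47892613 (Smarca1) and 164436994 (Asb11). Gjb1 has 4 windows, and the start used here lies inside the span of the gene, from 101376376 to 101385629. The start of the Asb11 window is also inside its gene, whose span begins at 164436953, before the motif. Gjb1 and Reg3g fell in Mist1KO, and Smarca1 and Asb11 rose. At least 1 window held CATATG in 2.26% of all genes, in 1.94% of those that fell and in 1.85% of those that rose. A second E-box, CAGCTG, also the same on both strands and unable to overlap CATATG, was in 18.2% of all genes, 21.4% of fallen and 12.1% of risen genes. A match describes these letters in this window only.

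Bhlha15, the targeted gene (chromosome 5, 144190286 to 144194441), read 1601, 1619 and 1624.3 on the wild type arrays and 89.9, 95.9 and 106.8 on the Mist1KO arrays. The 3 Mist1KO arrays all lay far below, by 14.1-fold (-3.82 ± 0.17, adjusted p = 3.59e-08). Its dimmer probe set averaged 381.8 in wild type and 70.6 in Mist1KO. The place of these probes with respect to the deletion is not stated, so the fall is a check of the labels only if they lie inside it. Tecpr1, a tether of autophagosomes and lysosomes, spans 144194442 to 144223615, and its lower end is the base after the span of Bhlha15. Which end holds its transcript start is not given here. Tecpr1 read 335.6, 325.4 and 338.6 in wild type and 129, 174.6 and 218 in Mist1KO, without overlap, and fell by 0.90 ± 0.16 (adjusted p = 0.0031). After caerulein its difference was -0.45 (adjusted p = 0.0611). Of 59 genes tested within 5 Mb of Bhlha15, 3 were called (5.08%), Tecpr1, which kept its call, and Polr1d and Lfng, with adjusted p up to 0.0577 and 0.123 when an array was left out. Of 132 within 10 Mb, 11 were called (8.33%). Over all genes tested the share was 13.1%.

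In all, 1977 probe sets differed (12.6% of those tested), 1075 higher and 902 lower in Mist1KO. Of 9481 named genes, 1241 did (13.1%), 582 higher (6.14% of all genes) and 659 lower (6.95%). These shares are the background for the counts of each gene list below. A change of at least 2-fold was found for 163 risen and 182 fallen genes, and of at least 4-fold for 20 and 15. The median difference of all genes was -0.09. The balance of directions moved with the scaling of the arrays: after centring each array on its median, 1399 probe sets were higher and 558 lower. The arrays of the genotypes lay apart in 1224 of the 1241 called genes, and in 34% of all genes.

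Leaving out 1 array at a time kept 468 of the 1241 calls in every fit (37.7%), 245 higher and 223 lower. The count of called probe sets was 1068 without Mist1KO saline replicate 3, 1078 without Mist1KO saline replicate 1 and 1158 without wild type saline replicate 2.

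Several array measures moved with the genotype. The 18 hybridisation spike probe sets, whose RNA is added at a fixed amount, were all lower on the Mist1KO arrays, by 0.46 on the log2 scale on average. Their geometric means were 1201, 1325 and 1262 in wild type and 1009, 978.5 and 755.3 in Mist1KO. The 50 brightest probe sets held 17.8%, 19.6% and 16.4% of all signal in wild type and 13.4%, 14.4% and 12.8% in Mist1KO. The ratio of 3′ to 5′ probe sets of Actb, a sign of RNA length, was 1.46, 1.66 and 1.48 against 1.93, 1.70 and 1.84. The same ratio of Gapdh went the other way, at 1.12, 1.24 and 1.03 in wild type and 0.996, 0.946 and 0.948 in Mist1KO. Wild type saline replicate 3 stood apart in the control for 18S ribosomal RNA, at 1116 against 158 to 282.3 on the remaining 5 saline arrays. The part of these measures in the differences below was not tested.

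**Figure D1:**
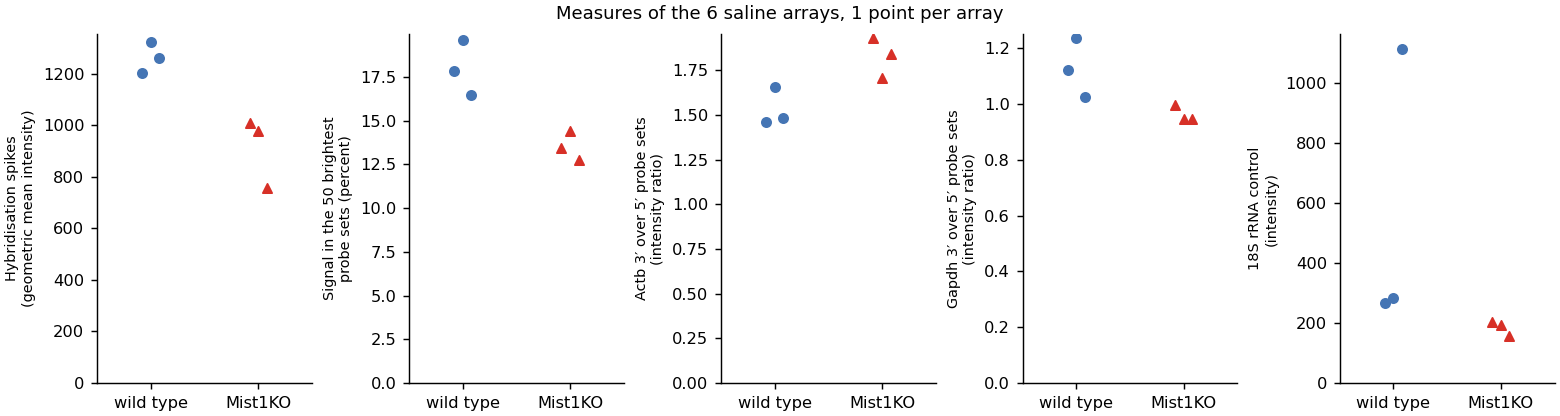
Measures of the 6 saline arrays, 1 point per array: geometric mean intensity of the hybridisation spikes, percent of signal in the 50 brightest probe sets, intensity ratios of the 3′ and 5′ probe sets of Actb and of Gapdh, and intensity of the 18S ribosomal RNA control. Spikes and the bright share are lower on all 3 Mist1KO arrays and the Actb ratio is higher but the Gapdh ratio lower on all 3, while wild type saline replicate 3 stands apart in the 18S control.

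The 15 largest rises started from wild type means between 7.37 for Cblif and 254.4 for Asb11, beside array medians of 85.25 to 90.15 in wild type. Cblif, the gastric intrinsic factor that carries cobalamin, read 14, 5.2 and 2.9 in wild type and 1082.3, 1438.2 and 1372.3 in Mist1KO. It was the largest rise of any named gene (5.67 ± 0.26, adjusted p = 3.59e-08). Smarca1, the ATPase of a nucleosome-spacing complex, went from 36.8, 40 and 22.3 to 1352.4, 1627.5 and 1547.9 (4.90 ± 0.25). Moxd1, a copper enzyme of the dopamine beta-hydroxylase family, went from 6.9, 8.7 and 10.7 to 357.8, 344.8 and 462.3 (3.88 ± 0.23). In all 3 the arrays of the genotypes were separated by more than their own range.

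Hpgd, the dehydrogenase that inactivates prostaglandins, rose from 83.9, 116.1 and 125.4 to 1622.6, 1144.1 and 1236.8 (3.41 ± 0.28). Other genes among the 15 largest rises have varied roles. Apcs encodes serum amyloid P (3.01 ± 0.28), Gpc1 a heparan sulfate proteoglycan of the cell surface (2.50 ± 0.35) and Fads3 a protein of the fatty acid desaturase family (2.41 ± 0.26). Vegfb, a growth factor of the VEGF family, rose by 2.36 ± 0.36, Kcnj15, an inward rectifier potassium channel, by 2.33 ± 0.34, and Bex3 by 2.87 ± 0.22. Eppin, a protease inhibitor known from the epididymis, rose by 2.19 ± 0.40, from 12.7, 108.6 and 27.3 to 193.9, 227.2 and 316.7, with the wild type arrays widely spread.

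Piga and Asb11 are neighbours on the X chromosome, Piga from 164419780 to 164433916 and Asb11 from 164436953 to 164459170, with 3036 bases between them. Piga, which starts the synthesis of GPI membrane anchors, rose from 108.6, 77.1 and 121.6 to 551.6, 801.4 and 512 (2.39 ± 0.20). Asb11, an adaptor of a ubiquitin ligase, rose from 204, 308.4 and 250.7 to 1244.4, 1300.8 and 1340.9 (2.28 ± 0.17). Both also rose after caerulein, by 1.26 and 1.58.

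**Figure D2:**
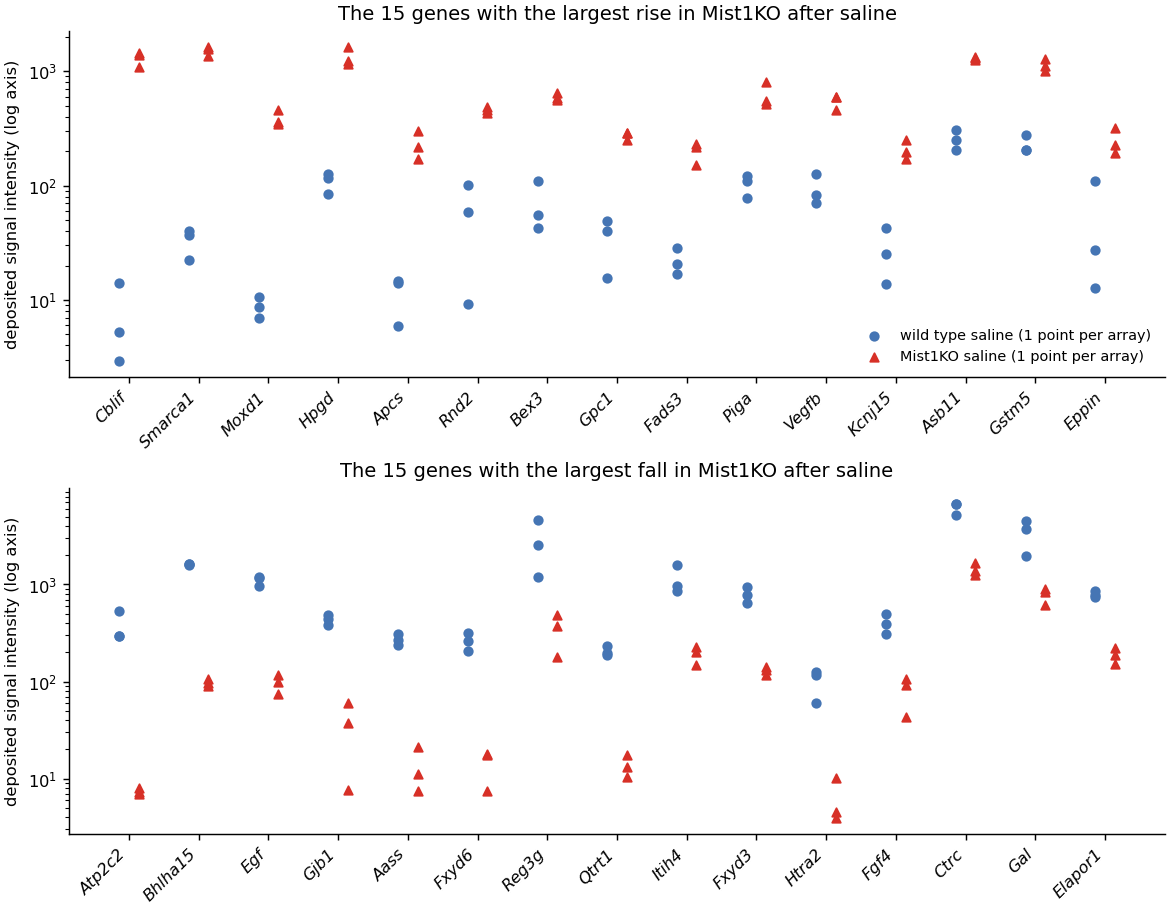
Deposited signal intensity (log axis) of 15 genes that rose most and 15 that fell most, 1 point per saline array, circles for wild type and triangles for Mist1KO. No gene overlaps between genotypes, as the rule for choosing them required; the risen genes from Cblif to Apcs lie at or below 125.4 in wild type, and Atp2c2 lies at 8 or lower on the Mist1KO arrays.

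Beside Bhlha15, the largest falls were in Atp2c2, Egf, Gjb1 and Aass. Atp2c2, the calcium and manganese pump of the secretory pathway, read 535.7, 291.6 and 295.7 in wild type and 7, 8 and 7.3 in Mist1KO (-3.86 ± 0.25, adjusted p = 5.17e-07). Egf, the epidermal growth factor, went from 1171, 1183.6 and 972.7 to 74.8, 117.6 and 100 (-3.29 ± 0.18). Gjb1, the main connexin of acinar gap junctions, went from 439.8, 485.1 and 383.5 to 37.2, 7.6 and 60.8 (-3.21 ± 0.33). Each of these 3 was at least 6 times as bright on the dimmest wild type array as on the brightest Mist1KO array.

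Aass, which starts the breakdown of lysine, fell from 270.6, 310.1 and 236.3 to 11.1, 7.5 and 21.2 (-3.20 ± 0.29). Qtrt1, which places queuine in transfer RNA, fell from 229.7, 187.3 and 199.1 to 17.5, 13.2 and 10.5 (-2.79 ± 0.17). The sodium pump regulators Fxyd6 and Fxyd3 changed by -3.08 ± 0.24 and -2.43 ± 0.14, and their genotypes did not overlap. Itih4, a plasma protein, changed by -2.43 ± 0.23, Htra2, a mitochondrial protease, by -2.21 ± 0.29, and Fgf4, a growth factor of the FGF family, by -2.12 ± 0.25. Dimmer probe sets of Fgf4 differed less, by -0.60, which was not called, and by -0.87, which was. Gal, the neuropeptide galanin, fell from 4474.5, 3754.2 and 1942.6 to 902.1, 618.1 and 844.5 (-2.01 ± 0.26). Elapor1, a membrane protein of the endosomal route, fell from 745.4, 851.5 and 780.3 to 186.4, 152.7 and 223.3 (-1.99 ± 0.14).

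Reading a gene by its brightest probe set leaves out 275 genes that only a dimmer probe set called. The largest of them, chosen after their values were seen, was Cldn18, a claudin of stomach and lung. Its dimmer probe set read 9.4, 8.8 and 8.4 in wild type and 137.3, 210.7 and 136.1 in Mist1KO (2.68 ± 0.28, adjusted p = 5.05e-05), while its brighter one differed by 0.11 (adjusted p = 0.763). For 65 of 300 such probe sets the brighter one had the opposite sign. Most of the 300 were higher in Mist1KO, so reading genes by the brightest probe set left out more rises than falls.

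Genes that earlier work tied to Mist1 were lower: 9 of 10 fell and none rose, with a median of -1.83. Bhlha15 itself is on this list; without it 8 of 9 fell and the median was -1.78. The list was drawn up with these data known and partly from work on such mice, so it is no independent evidence. Rab3d, the Rab GTPase of zymogen granules, fell from 1347.4, 1267.2 and 1111 to 307.4, 317.8 and 344.2 (-1.88 ± 0.12, adjusted p = 4.27e-07). Camk2b, a calmodulin kinase, fell from 203.6, 236.9 and 135.6 to 38.4, 39.6 and 46.4 (-1.78 ± 0.23). Serpini1, neuroserpin, fell from 207.5, 172.2 and 255.8 to 64.8, 73.1 and 41.2 (-1.56 ± 0.30). Ccpg1, an ER-resident autophagy receptor, was the member that did not pass, at 476.1, 432.6 and 593.4 against 525.6, 426.7 and 449.2 (-0.09 ± 0.20, adjusted p = 0.807).

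Genes of the secretory machinery moved both ways. Of 42 Rab GTPases tested, 7 rose and 4 fell, and beside Rab3d only Rab34 (0.95 ± 0.17) kept the call in every fit. A dimmer probe set of Rab34 was at -0.28 and was not called. The counts rested on single arrays, with 1 to 4 risen without any of Mist1KO saline replicates 1, 2 and 3 or wild type saline replicate 2. The fallen count was 2 without Mist1KO caerulein replicate 1, Mist1KO saline replicate 1 or 2 or wild type saline replicate 2, and 1 without Mist1KO saline replicate 3 or wild type saline replicate 1. Of 30 genes of the granule membrane and exocytosis machinery, 3 fell and none rose, 10% lower beside 6.95% of all genes. Vamp8, a SNARE of zymogen granules, fell from 749.5, 847.6 and 935.3 to 632.4, 439.5 and 488.3 (-0.69 ± 0.14), and Stx1a, a syntaxin of the plasma membrane, from 177.7, 308.6 and 186.1 to 65.4, 37.6 and 39.2 (-1.86 ± 0.21). The count was 5 without Mist1KO caerulein replicate 3.

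Calcium and secretagogue signalling had 3 fallen and 1 risen of 30, Prkce, a protein kinase C, being the risen gene (0.81 ± 0.16). Cckar, the cholecystokinin receptor, read 2633.3, 3085.1 and 3005.3 in wild type and 4111.5, 3648.6 and 3584.9 in Mist1KO and did not pass (0.38 ± 0.16, adjusted p = 0.139). Its Mist1KO arrays all lay above the wild type arrays, as 34% of all genes did in either direction. Among coats, p24 cargo proteins and golgins, 4 of 51 fell and 2 rose, all 6 in every fit. Tmed6, a p24 protein abundant in pancreas, fell from 6910.3, 5083.4 and 5610.2 to 1942.3, 1726 and 1937.4 (-1.63 ± 0.16). Kdelr3, a retrieval receptor for ER proteins, fell by 1.71 ± 0.21, Copz2, a subunit of the COPI coat, by 1.56 ± 0.16, and Arfgap3, a regulator of that coat, by 1.26 ± 0.19. The p24 proteins Tmed7 and Tmed5 rose by 1.15 ± 0.15 and 0.95 ± 0.18.

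At the ER membrane, where secreted proteins enter, 10 of 38 genes of the translocon, signal peptidase and oligosaccharyl transferase fell and 5 rose, with a median of -0.05. Subunits with like roles moved apart. Sec11c, a catalytic subunit of signal peptidase, fell from 1673.8, 1735.9 and 1601.7 to 694.8, 534.4 and 623.6 (-1.42 ± 0.13), while its counterpart Sec11a rose from 395.8, 351.8 and 543.4 to 871.2, 736.8 and 714.4 (0.84 ± 0.15). The genotypes did not overlap in either gene. Tram1, which helps chains cross the membrane, fell by 0.89 ± 0.13, Sec61b, a subunit of the channel, by 0.77 ± 0.15, and Alg5, of dolichol sugar synthesis, by 0.80 ± 0.17. Stt3b, a catalytic subunit of the oligosaccharyl transferase, rose by 0.62 ± 0.10. Of the 5 risen, 2 remained without Mist1KO saline replicate 1 or wild type saline replicate 2 and 3 without Mist1KO saline replicate 2 or 3, and centring on the array medians gave 8.

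The digestive enzymes and other secreted acinar proteins were all dimmer on average in Mist1KO, but few passed. Of 24 tested, 5 fell, none rose, and all 24 differences were below 0, with a median of -0.52 beside -0.09 for all genes. Ctrc, chymotrypsin C, fell from 6685.3, 6774.7 and 5249.2 to 1391.4, 1246.5 and 1653.7 (-2.11 ± 0.15, adjusted p = 1.93e-06), 4.32-fold. Prss3, a trypsinogen, fell from 17315.8, 7381.5 and 13296.7 to 4585.3, 2747.7 and 3079.6 (-1.81 ± 0.27). Pla2g1b, the pancreatic phospholipase A, fell from 17974.6, 18830.9 and 16652.9 to 9632.2, 9602.7 and 9572.4 (-0.89 ± 0.15). These 3 kept the call in every fit.

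The remaining enzymes lay close together. Prss2, a trypsinogen, read 28649.2, 33727.7 and 26079.6 in wild type and 19480.1, 22124.1 and 18547.7 in Mist1KO (-0.55 ± 0.19, adjusted p = 0.0686), and Cpa1, a carboxypeptidase, differed by -0.44 ± 0.19 (adjusted p = 0.145). Ctrl and Clps, a chymotrypsin and colipase, passed at -0.60 ± 0.18 and -0.55 ± 0.17, but the adjusted p reached 0.144 and 0.152 when an array was left out. The spikes differed by -0.46 on the same arrays and the share of the 50 brightest probe sets was lower; their part in these differences was not tested. Quantile normalization, which gives all arrays the same distribution, left 3 fallen and a median of -0.02. The fit without the caerulein arrays called 19. Without Mist1KO caerulein replicate 3 the count was 17 and without wild type caerulein replicate 3 it was 8. It was 3 without Mist1KO caerulein replicate 1, Mist1KO saline replicate 1 or 3, wild type saline replicate 1 or 2, or wild type caerulein replicate 2, and also with the replicate block or with medians centred. In whole tissue, fewer cells of a type and less RNA per cell cannot be told apart.

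The Reg family, small secreted lectins of acinar cells, had 4 of 7 fallen and none risen. Reg3g read 2564.4, 1184.8 and 4637.6 in wild type and 485.2, 377.7 and 181.1 in Mist1KO (-2.83 ± 0.56, adjusted p = 0.0056), with a wide spread in both genotypes but no overlap. Reg3b read 17046, 19515.2 and 18585.9 against 12871.9, 6996.5 and 7314.9 (-1.07 ± 0.25), and Reg3d and Reg2 differed by -0.54 ± 0.14 and -0.63 ± 0.17. The last 3 reached adjusted p-values of 0.0647, 0.0854 and 0.107 when an array was left out. Without wild type saline replicate 2 or Mist1KO saline replicate 2 or 3 the list had 1 call, as after quantile normalization, and 2 without wild type saline replicate 1.

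Other bright genes that fell were P4hb, a disulfide isomerase (-0.46 ± 0.13, adjusted p up to 0.0932 when an array was left out), and ND5 of the mitochondrial genome (-0.39 ± 0.11, up to 0.127). The 8 brightest called genes, clone names left out, were all lower in Mist1KO. The share of signal in the 50 brightest probe sets was also lower on every Mist1KO saline array, and its part in these falls was not tested.

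Junctions between cells showed opposite movements. Of 8 connexins, Gjb1 and Gjb2 fell and none rose. Gjb2, the partner connexin of acinar cells, went from 489.8, 511.7 and 576.6 to 165.6, 142.7 and 176.5 (-1.60 ± 0.16). Of 38 genes of tight junctions, adherens junctions and polarity, 5 rose and 3 fell. Cldn7, a claudin of ducts and other epithelia, rose from 176.7, 256.5 and 284.1 to 703.2, 565.3 and 576.6 (1.31 ± 0.17), and Epcam, an epithelial adhesion molecule, from 105.9, 96.2 and 166.1 to 386.4, 280.3 and 292.2 (1.28 ± 0.18). The claudins Cldn10 and Cldn8 differed by 0.71 ± 0.13 and -1.18 ± 0.25, Ocln, occludin, by 1.08 ± 0.24, and Crb3, a polarity protein, by -0.73 ± 0.13. The fallen genes numbered 5 without wild type caerulein replicate 1.

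Of 28 ligands, receptors and binding proteins of the EGF, FGF and insulin-like growth factor families, 4 fell and 1 rose. Beside Egf, its receptor Egfr fell, from 1367.9, 1729.5 and 1389.2 to 830.5, 889.2 and 644 (-0.91 ± 0.14). A dimmer probe set of Egfr differed by 0.21 and was not called. Igf1, insulin-like growth factor, differed by -0.51 ± 0.12 and the FGF receptor Fgfr4 by -0.76 ± 0.19, with adjusted p-values up to 0.0582 and 0.0874 when an array was left out. Dimmer probe sets of Igf1 differed by -0.043 and 0.305 and were not called, so its direction is uncertain. The risen gene, Fgfr1, was called in no fit without Mist1KO saline replicate 1, 2 or 3 or wild type saline replicate 2 or 3. The fallen genes numbered 2 without Mist1KO saline replicate 2 or 3 or wild type saline replicate 2.

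**Figure D3:**
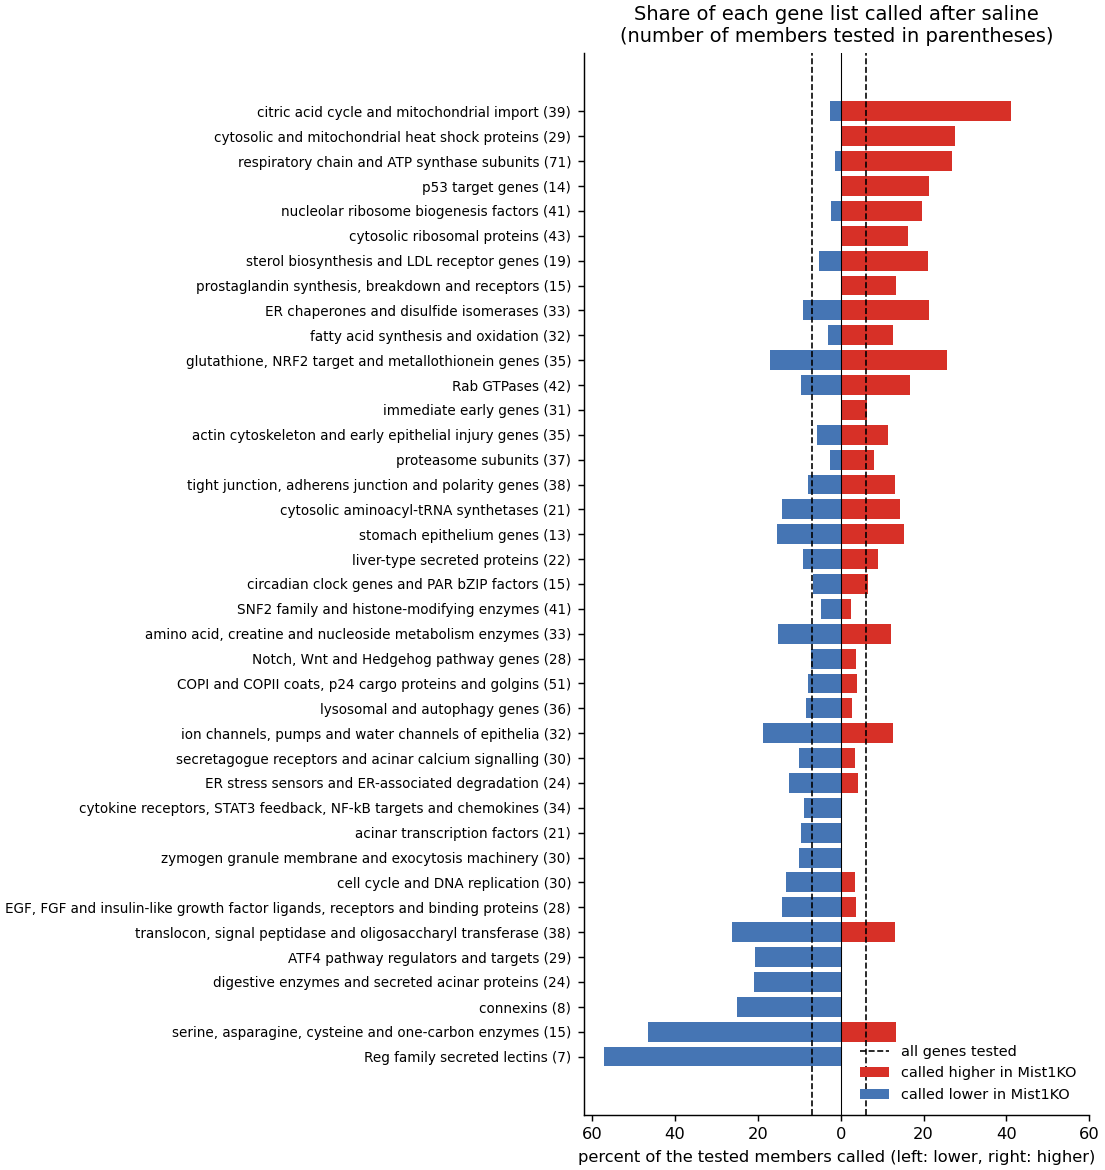
Percent of the tested members of 39 gene lists called higher (right) or lower (left) in Mist1KO after saline, with the number tested in parentheses and dashed lines at the share of all genes (6.14% higher, 6.95% lower). The citric acid cycle and mitochondrial import list has the widest bar to the right, 16 of 39, and the Reg family the widest to the left, 4 of 7; bars of short lists stand for few genes.

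Enzymes that make serine, asparagine and related amino acids were among the fallen genes. Of 15 tested, 7 fell and 2 rose, with a median of -0.62. Psat1, of serine synthesis, fell from 382.8, 318.3 and 290 to 109.2, 51.1 and 120.4 (-1.69 ± 0.23), Aldh18a1, of proline synthesis, from 756.1, 533.5 and 577.6 to 206.2, 340.9 and 325.4 (-1.07 ± 0.18), and Asns, asparagine synthetase, from 3546.4, 2888.2 and 2770.7 to 1794.3, 1795.5 and 1582.2 (-0.82 ± 0.12). No array of one genotype lay within the range of the other in these 3 genes. Glul, glutamine synthetase, went the other way, from 648.6, 594.9 and 455.3 to 2424.9, 1986.7 and 1956.5 (1.88 ± 0.30, adjusted p = 0.0015). Aldh1l1, of folate metabolism, rose by 0.74 ± 0.14, while a dimmer probe set differed by -0.27 and was not called.

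Many of these enzymes are known targets of the transcription factor ATF4, which answers amino acid and ER stress. In the list of regulators and targets of that pathway, 6 of 29 fell and none rose. Nupr1, a stress-induced chromatin protein, fell from 8229.4, 9582.1 and 9687.6 to 5398.4, 3173.3 and 4010.8 (-1.16 ± 0.18), and Slc1a4, a serine and alanine transporter, from 247.3, 195.4 and 186.2 to 96.6, 110.2 and 141.5 (-0.76 ± 0.16). Chac1, which degrades glutathione, differed by -1.42 ± 0.33, with adjusted p up to 0.0582 when an array was left out. Atf4 itself read 782, 731.3 and 730 against 606.1, 613.7 and 774.6, which overlap, and did not pass (-0.17 ± 0.15, adjusted p = 0.463).

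Transfer RNA synthetases moved both ways, with 3 higher and 3 lower of 21. Yars, which charges tyrosine, kept its call in every fit (804.9, 658.7 and 475 against 365.6, 178.2 and 204.4; -1.34 ± 0.24), and none of the other 5 did. The risen count was 0 without Mist1KO saline replicate 2 or 3 or wild type saline replicate 2, and 1 without Mist1KO saline replicate 1 or wild type saline replicate 1. The fallen count was 1 without Mist1KO saline replicate 1 or 3. Among 33 enzymes of amino acid, creatine and nucleoside metabolism 5 fell and 4 rose, and beside Aass only Sardh, of sarcosine breakdown, kept the call (-0.94 ± 0.17). The risen count there was 0 without Mist1KO saline replicate 3, 1 without wild type saline replicate 1 or 2 and 2 without Mist1KO saline replicate 1. The fallen count was 2 without Mist1KO saline replicate 1 and 3 without Mist1KO caerulein replicate 1 or 2, Mist1KO saline replicate 2 or wild type saline replicate 1 or 2.

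Chaperones of the ER lumen moved both ways, 7 higher and 3 lower of 33. Hsp90b1, the ER member of its chaperone family, rose from 841.2, 629.2 and 895.1 to 1699, 1457 and 1589.4 (1.0 ± 0.15), and Pdia3, a disulfide isomerase for glycoproteins, from 444.1, 458.7 and 583.3 to 981.4, 986.2 and 981.5 (0.97 ± 0.17). Creld2 and Manf, both known to be induced by ER stress, rose by 0.78 ± 0.15 and 0.73 ± 0.13. Qsox1, a sulfhydryl oxidase, and Selenof, an ER selenoprotein, fell by 0.90 ± 0.19 and 0.76 ± 0.13. Hspa5, the main ER chaperone, read 2776.4, 2869.7 and 2572.2 against 3705.4, 3694.2 and 4003.9 (0.47 ± 0.11), with adjusted p up to 0.067 when an array was left out. The risen genes numbered 4 without Mist1KO saline replicate 3. Of 24 sensors and factors of ER-associated degradation 3 fell and 1 rose. The fallen count was 1 without Mist1KO saline replicate 1 or 2 or wild type saline replicate 1 or 3, and the risen count 0 without Mist1KO saline replicate 1 or wild type saline replicate 2. Os9, a lectin of that route, fell by 0.67 ± 0.13 in every fit, and Xbp1, a factor of the unfolded protein response, did not pass (-0.12 ± 0.12, adjusted p = 0.58).

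Heat shock proteins of cytosol and mitochondria had 8 of 29 risen and none fallen, with a median of 0.33. The mitochondrial chaperonins Hspe1 and Hspd1 rose, Hspe1 from 139.5, 242.6 and 313 to 564.7, 625.6 and 561.1 (1.33 ± 0.23) and Hspd1 from 526.6, 971.5 and 683.4 to 1377, 1390.1 and 1387.4 (0.95 ± 0.18). Hspa8, the constitutive cytosolic chaperone, rose from 1499, 1173.2 and 2519.2 to 3674.7, 3568.7 and 2752.3 (1.0 ± 0.22). A dimmer probe set of Hspa8 differed by -0.09. The list had 5 risen without Mist1KO saline replicate 1 or 2 or wild type saline replicate 1.

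Mitochondrial genes of the nucleus leaned upward. Of 71 subunits of the respiratory chain and ATP synthase 19 rose and 1 fell, against 6.14% and 6.95% of all genes, and 55 differences were above 0. Ndufa6, of complex I, rose from 499.6, 524.9 and 520.4 to 1002.7, 984 and 908.9 (0.88 ± 0.12), and Ndufa7, of the same complex, by 0.94 ± 0.15. Sdhd, an anchor subunit of succinate dehydrogenase, rose from 349.8, 307.9 and 365.8 to 793.6, 618.2 and 707.4 (1.01 ± 0.20). The fallen subunit was Uqcrq, of the cytochrome bc complex (-0.65 ± 0.12). In 11 of the 19 and in Uqcrq the call held in every fit. The risen count was 12 without Mist1KO saline replicate 1, and quantile normalization gave 17 risen and 5 fallen. A dimmer probe set of Cox8a, of cytochrome oxidase, also chosen after its values were seen, read 272.6, 226.1 and 272.5 against 1595.8, 1546.3 and 1494.8 (2.51 ± 0.34), while its brighter one did not pass (0.52, adjusted p = 0.0542).

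Of 39 genes of the citric acid cycle, mitochondrial import and carriers 16 rose and 1 fell, with a median of 0.42. Slc25a4, the muscle-type carrier that exchanges ADP for ATP, rose from 71.4, 104.7 and 163.3 to 400.9, 407 and 430.2 (1.77 ± 0.20). Ppargc1b, a coactivator of mitochondrial genes, rose from 36.9, 26.5 and 48 to 111.2, 134.6 and 228.4 (1.62 ± 0.35), and Pdha1, of pyruvate dehydrogenase, from 933.3, 907.7 and 1078.1 to 1683.5, 1774.5 and 1687.4 (0.81 ± 0.13). The genotypes did not overlap in these 3. The list had 9 risen without Mist1KO saline replicate 3 or wild type saline replicate 2. Idh2, of the same cycle, was the fallen gene (-0.60 ± 0.14), with adjusted p up to 0.0709 when an array was left out.

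Among 32 lipid genes 4 rose and 1 fell, and those that kept the call act in fatty acid oxidation. Hadh, which acts in each turn of beta-oxidation, rose from 1671.5, 1472.3 and 1598.6 to 2906.5, 3534.5 and 3674.4 (1.08 ± 0.14), Cpt1a, which admits fatty acids to mitochondria, from 894.5, 779.5 and 1175.8 to 1868.3, 1710.9 and 1887.9 (0.95 ± 0.16), and Acadl, an acyl-CoA dehydrogenase, by 0.93 ± 0.19. Of 19 sterol genes 4 rose and 1 fell. Msmo1, a sterol oxidase, kept its call (1.05 ± 0.20), and the risen count was 1 without Mist1KO saline replicate 3 and 2 without wild type saline replicate 3.

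Factors of ribosome assembly had 8 of 41 risen and 1 fallen, with a median of 0.21. Npm1, a nucleolar chaperone, rose from 778.8, 630 and 841.6 to 1650.4, 1451.5 and 1588.4 (1.05 ± 0.14), Ncl, nucleolin, from 563.9, 545.2 and 834.2 to 1341.5, 1190.2 and 1347.6 (1.0 ± 0.19), and Nop58, of small nucleolar ribonucleoproteins, from 90.8, 146.1 and 76.6 to 260.6, 196.3 and 243.6 (1.07 ± 0.23). The fallen gene, Polr1d, had a second probe set called in the opposite direction (0.72 ± 0.12 against -0.55 ± 0.13), so its direction is uncertain. Of the 8 risen, 5 kept the call whichever array was left out, and 5 were counted without Mist1KO saline replicate 1 or 3 or wild type saline replicate 2. Cytosolic ribosomal proteins had 7 of 43 risen and none fallen, Rpl7a (0.54 ± 0.12) and Fau (0.63 ± 0.12) in every fit. That count was 2 without Mist1KO saline replicate 1, 3 without Mist1KO saline replicate 3 and 4 without wild type saline replicate 1 or 2, but 11 after quantile normalization and 13 with medians centred. Many ribosomal protein genes have near-identical processed copies, so their values are uncertain.

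**Figure D4:**
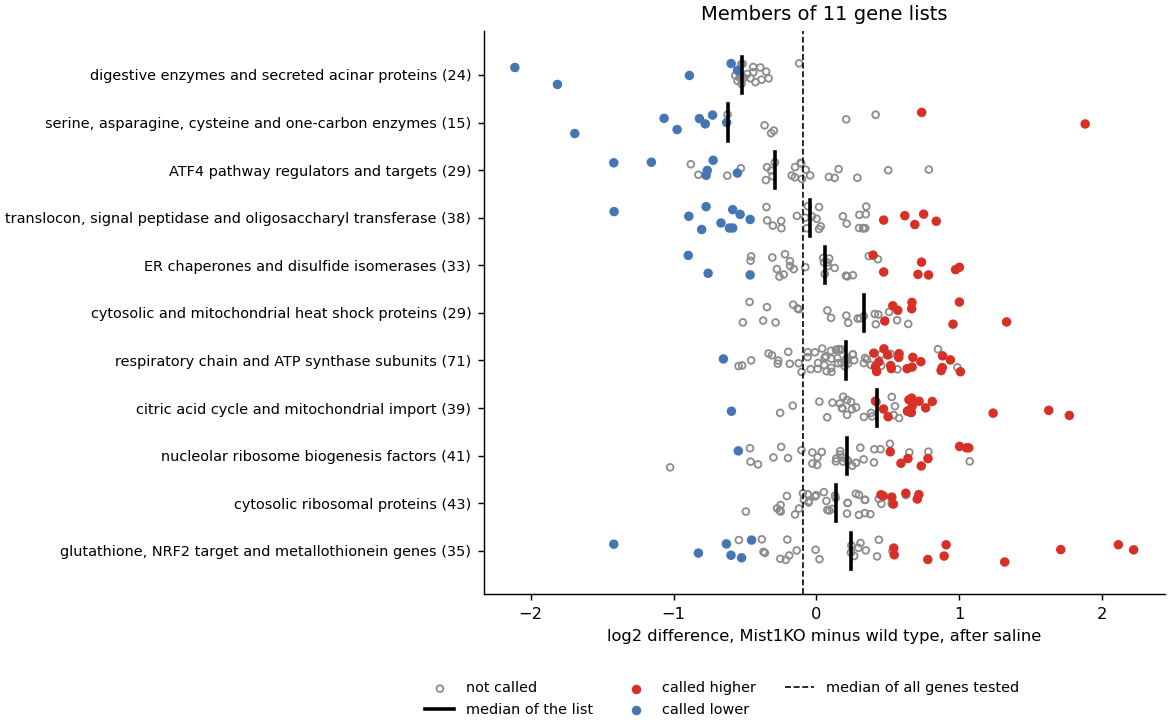
Log2 differences (Mist1KO minus wild type, after saline) of the members of 11 gene lists, 1 point per gene, filled where called, with a bar at each list's median and a dashed line at the median of all genes (-0.09). Mitochondrial lists lie mostly to the right, the digestive enzymes in a tight cluster around -0.52 with Ctrc and Prss3 far to the left, and the translocon list on both sides.

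Proteasome subunits mostly did not pass, with 3 of 37 risen and 1 fallen. Psme1, an activator of the proteasome, rose from 180.1, 205.2 and 157.4 to 470.7, 520.3 and 502.2 (1.38 ± 0.15), while Psmb10, an immunoproteasome subunit, fell by 0.64 ± 0.12.

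Glutathione, NRF2 target and metallothionein genes had 9 of 35 risen and 6 fallen. The risen genes were led by a cluster of glutathione transferases on chromosome 3, between 107895854 and 108017973. Gstm5 read 205.8, 277.7 and 205.4 in wild type and 1285.1, 1008.1 and 1105.9 in Mist1KO (2.22 ± 0.14), Gstm1 836.9, 731.6 and 718.8 against 2490.8, 2300.4 and 2824.9 (1.71 ± 0.14), and Gstm2 1045, 1034.3 and 1027 against 2583.4, 2559.5 and 2679.3 (1.32 ± 0.12). Gstm3 rose by 2.11 ± 0.41 from widely spread wild type values of 28.8, 168.1 and 51.1. These paralogs are close in sequence, so how many of them changed is uncertain. The risen count was 5 without Mist1KO saline replicate 3 or wild type saline replicate 2. The fallen count was 2 without Mist1KO saline replicate 1 or wild type saline replicate 2 and 3 without Mist1KO saline replicate 3. Gstp1, Gpx1 and Hmox1 were among the fallen, with adjusted p up to 0.064, 0.0685 and 0.0763 when an array was left out.

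Among 32 channels, pumps and water channels of epithelia 6 fell and 4 rose. Besides the Fxyd genes, Slc12a2, a chloride cotransporter of the basal membrane, fell from 495.7, 649.5 and 746.7 to 326.5, 287.5 and 304.1 (-0.98 ± 0.14), and Aqp1, a water channel, from 270.8, 276.3 and 319 to 151.1, 146.9 and 164.8 (-0.83 ± 0.17). The risen count was 1 without Mist1KO saline replicate 1 and 2 without Mist1KO saline replicate 2 or wild type saline replicate 1.

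Of 21 transcription factors of acinar identity, Bhlha15 and Creb3l2 were called lower and none higher. With medians centred 2 were called higher, and without wild type saline replicate 2 1 was. The lower count was 1 without Mist1KO saline replicate 1 or wild type saline replicate 1. Ptf1a, the factor that drives enzyme genes, read 1015.2, 1067.9 and 1342.1 in wild type and 1508.6, 1220.6 and 1349.8 in Mist1KO, which overlap (0.25 ± 0.16, adjusted p = 0.324). Creb3l2, a relative of the ER stress sensor ATF6, differed by -0.68 ± 0.17, with adjusted p up to 0.0799 when an array was left out.

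Of 13 stomach genes 2 rose and 2 were lower, 15.4% each way. Of 22 liver-type secreted proteins 2 rose and 2 were lower, 9.09% each way. The shares over all genes were 6.14% higher and 6.95% lower, and both lists are short. The risen stomach genes were Cblif and Pga5, a pepsinogen (0.52 ± 0.15, adjusted p up to 0.107 when an array was left out). The lower stomach count was 0 without Mist1KO saline replicate 2 or 3 or wild type saline replicate 2. Neither of these 2 lower genes kept the call in every fit. Besides Apcs, the risen liver-type gene was Ttr, transthyretin, also made in islets. Ttr read 317.3, 215.2 and 261.7 in wild type and 598.7, 615.8 and 908.8 in Mist1KO (1.35 ± 0.20). Of the 2 lower liver-type genes, 1 was left without Mist1KO saline replicate 1, 2 or 3 or wild type saline replicate 1 or 3.

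Cell cycle genes had 4 of 30 lower and 1 higher, none of which kept the call whichever array was left out. The lower count was 0 without Mist1KO saline replicate 1, 1 without Mist1KO saline replicate 3 or wild type saline replicate 1 or 2, and 2 without Mist1KO caerulein replicate 2. Of 14 p53 targets 3 rose, and Plk2, a kinase of the polo family, did so in every fit (131.7, 152.6 and 235.4 against 520.9, 512.3 and 549.9; 1.55 ± 0.30), being the 1 left without Mist1KO saline replicate 1 or 3. Of 31 immediate early genes 2 were called, Gadd45b and Myc, with adjusted p up to 0.165 and 0.157 when an array was left out. In the actin cytoskeleton and epithelial injury list 4 of 35 were higher and 2 lower, the lower count being 0 or 1 in each fit that left out an array and 0 with medians centred. Of the higher genes, Pfn1, profilin, and Anxa2, an annexin, rose in every fit, by 0.92 ± 0.19 and 0.74 ± 0.13.

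The remaining lists held few calls. There were 3 fallen of 34 cytokine, STAT3 and NF-kB genes, 3 fallen and 1 risen of 36 lysosomal and autophagy genes, 2 fallen and 1 risen of 28 Notch, Wnt and Hedgehog genes, 1 each way of 15 clock genes, 2 risen of 15 prostaglandin genes and, beside Smarca1, 2 fallen of 41 chromatin genes. In these lists Hpgd and Smarca1 alone kept the call whichever array was left out.

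Markers of the cell types a whole pancreas can hold were read as summed intensities, without detection calls. Summed intensities of the acinar markers lay between 170532.6 and 215760.5 in wild type and between 122362.5 and 142682.1 in Mist1KO, without overlap. Of 10, Pla2g1b alone was called, but 7 were without Mist1KO caerulein replicate 3 and 2 without wild type caerulein replicate 3. Quantile normalization brought the acinar median from -0.52 to 0.00. The sum of the duct markers was also lower, from 35357.3 to 41123 against 27669.7 to 30789.8, with Cldn7 and Cldn10 risen and Aqp1 and Muc1 lower of 13, Muc1 with adjusted p up to 0.0854 when an array was left out. The duct median went from -0.39 to -0.08 after quantile normalization. Krt19 and Sox9, both duct markers, did not pass (-0.35 ± 0.21, adjusted p = 0.299, and -0.81 ± 0.25, adjusted p = 0.0512).

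Islet markers summed to 15490.3 to 16656.5 against 15587.9 to 16712.3, which overlap, and 1 of 19 rose and 1 fell. Cpe, a prohormone-processing enzyme, fell from 244.2, 439.7 and 587.8 to 197, 152.3 and 110.6 (-1.31 ± 0.26), while Ins2, insulin, was at -0.06 ± 0.18. Endothelial markers were lower in sum, from 2211.6 to 2630.3 against 1715.1 to 1835.2, and so were nerve markers, from 1726.8 to 2175.3 against 1308.1 to 1544.2, with 2 of 13 and 1 of 11 called. Leaving out 1 array gave 0 to 3 endothelial calls and 0 or 1 nerve call, and no member of either list was called in every fit. The endothelial count was 0 without Mist1KO saline replicate 2 or 3 or wild type saline replicate 2, and the nerve count 0 without Mist1KO saline replicate 1 or wild type saline replicate 1. After quantile normalization the endothelial median went from -0.36 to -0.28 and the nerve median from -0.22 to -0.14. Sums of fibroblast, adipocyte, myeloid, lymphocyte, plasma cell and red cell markers overlapped between the genotypes. Of 25 myeloid markers 2 fell and none rose, and 23 differences were below 0. Among them Ngp, a neutrophil granule protein, fell (-0.74 ± 0.15). Of 14 lymphocyte markers 1 rose and 3 fell, and 12 differences were below 0. The risen marker was Cd3e, from 48.1, 33.1 and 36 to 246.2, 265.6 and 168.7 (2.07 ± 0.44). Cd4 and Cd8b1 were among the fallen, with adjusted p up to 0.119 and 0.098 when an array was left out. No fallen lymphocyte marker kept the call in every fit. Of 8 plasma cell markers 1 rose and 1 fell, and 7 differences were below 0, with a median of -0.39. The fallen count was 0 without Mist1KO saline replicate 1 or 3 or wild type saline replicate 1. Sdc1, listed for plasma cells and made by epithelia as well, was the risen marker (0.99 ± 0.18) and the only one above 0. The part of these markers in the other differences was not tested.

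The 6 caerulein arrays gave a second reading of the genotype difference on other pancreata. Of 1241 genes called after saline, 1086 (87.5%) had the same sign there, 606 (48.8%) were called the same way and 20 the other way. After caerulein 20.7% of all genes were called. Over all named genes tested the 2 genotype differences had a Pearson correlation of 0.49. The share with the same sign over all genes was not counted, so the 87.5% has no background here. Among the 345 genes changed at least 2-fold after saline, 310 had the same sign and 180 were called the same way. The median difference of the risen genes was 0.74 after saline and 0.47 after caerulein, and that of the fallen genes -0.77 and -0.55. Choosing genes by their saline call favours a larger value on the saline arrays.

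Of the leading genes, Cblif, Smarca1, Bhlha15, Atp2c2, Egf and Gjb1 were called the same way after caerulein, at 4.31, 3.64, -3.51, -3.18, -3.36 and -2.26. Eppin was not (0.33, adjusted p = 0.613), and neither was Reg3d (-0.26, adjusted p = 0.207). All 24 digestive enzymes passed after caerulein, all lower, with a median of -0.88, and the spikes of that group of Mist1KO arrays lay between 408.4 and 513.1 against 831.5 to 1443 in wild type caerulein. Their part in it was not tested. Of the 29 ATF4 genes 24 fell there, against 6 after saline. The mitochondrial lists had 16 of 71 and 11 of 39 risen after caerulein, with 4 and 2 fallen. The saline shares of all genes are not the background for these caerulein counts. Of all 15716 probe sets tested, 1579 were called higher and 1598 lower after caerulein.

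**Figure D5:**
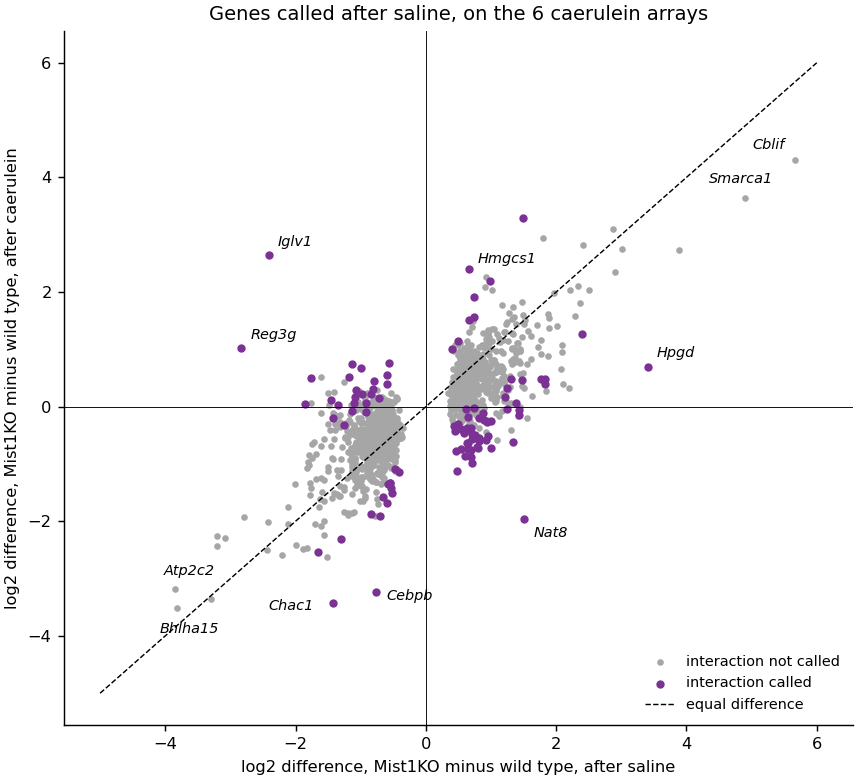
Log2 genotype differences (Mist1KO minus wild type) of the 1241 genes called after saline, on the saline arrays (x) and on the caerulein arrays (y), purple where the interaction of genotype and injection was called. Most points lie on the same side of 0 on both axes (1086 of 1241), Cblif (5.67 and 4.31) and Bhlha15 (-3.82 and -3.51) are far out on both axes, and Reg3g, Iglv1, Nat8 and Hpgd lie far from the dashed line of equal difference; the genes were chosen on the x axis.

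The interaction tests whether the genotype difference was not the same after both injections. It was called in 99 of the 1241 genes (7.98%) and in 3.34% of all genes tested. The interaction contains the same saline difference by which these genes were chosen, so the choice favours a larger share. Over probe sets the count of 518 was 271 without Mist1KO caerulein replicate 1, 300 without Mist1KO caerulein replicate 2, 309 without Mist1KO saline replicate 1, 274 without Mist1KO saline replicate 3 and 344 without wild type caerulein replicate 2. Hpgd, 3.41 after saline, was at 0.70 after caerulein (interaction -2.71 ± 0.40, adjusted p = 0.0037). Its caerulein arrays were dim in both genotypes, at 46, 7.7 and 16 in wild type and 37.3, 40.8 and 57.5 in Mist1KO. At values this near the offset of 18.7 a difference is made smaller, so the size of this interaction is uncertain. Creld2, risen after saline, was lower in Mist1KO after caerulein (-0.70, interaction -1.49 ± 0.21, adjusted p = 0.0032), and Cpt1a was at -0.27 there (interaction -1.21 ± 0.22). Nat8, an acetyltransferase known from kidney and liver, rose from 263.9, 194.5 and 212.7 to 537.2, 684.3 and 803 after saline and fell after caerulein (1.51 and -1.96; interaction -3.46 ± 0.25, adjusted p = 2.26e-05).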

How the data were processed

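RNA of 12 mouse pancreata was measured on Affymetrix arrays, 1 per pancreas, in 4 groups of 3. The authors deposited a signal intensity on a linear scale for each probe set of each array. Their 2% trimmed means lay between 151.08 and 151.37, which points to a global scaling before deposit. The software behind the values is not stated, and signal over background is unknown. No 2 arrays were identical. Precision is limited by the number of arrays.

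Of 22516 probe sets, 64 were controls; 20240 had 1 gene symbol in GEO's platform annotation, which can be old, 682 several and 1530 none. Of those with 1, 20211 matched the reference gene table (GRCm38.p6), and 0 symbols changed. An offset of 18.7 was added before log2. Controls and probe sets with mean log2 at or below the 30th percentile were left out. All 12 arrays entered 1 fit of 4 group means in limma 3.58.1 (R 4.3.3; lmFit, eBayes with an intensity trend; 8 residual degrees of freedom), tested from both sides and adjusted by the Benjamini-Hochberg method. The steps were tested on simulated data. Figures used matplotlib 3.10.9.

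The members and the 51 lists, of which 1278 of 1700 symbols were tested, were chosen with earlier results of these data known. Genes were named as the 15 largest rises and falls without overlap between genotypes, leaving out predicted and clone names, the 8 brightest called, up to 4 called members in each direction per list, the 8 largest interactions, called genes within 5 Mb of Bhlha15, and uncalled members for background. Alternatives were 2 scalings, offsets of 5 and 50, no filter and a filter at the 50th percentile, no trend, the 6 saline arrays only, the replicate number as a block, and leaving out each array. Same-numbered arrays did not deviate together (correlations from -0.104 to 0.0452).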

Additional observations from a re-analysis of the deposited data

Results flagged for a closer look

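Each named gene below had a genotype difference that was not the same after saline and after caerulein, by limma's interaction term at an adjusted p under 0.05. Values are the interaction, the log2 difference after caerulein minus that after saline. Groups of 3 arrays were not searched for single outlying arrays. A gene is listed here whether or not its saline call held when an array was left out. For Myc, Ccnd2, Sel1l, Farsb and Stard4, among others, it did not hold.

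Genes higher in Mist1KO after saline whose difference was lower after caerulein were Nat8 (-3.46), Hpgd (-2.71), B4galt4 (-1.96), Sesn1 (-1.73), Myc (-1.69), Creld2 (-1.49), Actg1 (-1.45), Ccnd2 (-1.39), Cpt1a (-1.21), Sel1l (-1.19), Piga (-1.13), Farsb (-0.80) and Aldh1l1 (-0.76). Genes lower in Mist1KO after saline whose difference was higher after caerulein were Iglv1 (5.05), Reg3g (3.85), Zfp518b (2.26), Stx1a (1.90), Cd14 (1.66), Stard4 (1.25) and Il1rn (1.13). The saline difference of Iglv1, an immunoglobulin gene, rests on wild type arrays at 551.8, 67.2 and 201.8 that overlap with Mist1KO arrays at 7.5, 67.5 and 13.2. In the same direction after both injections and larger after caerulein were Cebpb (-2.47), Chac1 (-2.01), Idh2 (-1.08), Anxa2 (1.17), Sdc1 (1.21) and Hmgcs1 (1.75).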

How the results depend on the processing

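The count of probe sets called after saline lay between 1068 and 2059 when 1 array was left out, against 1977, and was 1648 with the replicate block; without Mist1KO saline replicate 3 it was 1068, without Mist1KO saline replicate 1 1078 and without wild type saline replicate 2 1158. Between the other settings it ran from 1574 (the 6 saline arrays only) to 2067 (offset 50). The caerulein count, 3177, lay between 2183 and 3331 without 1 array. The interaction count, 518, lay between 271 and 552 without 1 array and was 328 without the intensity trend and 392 with the replicate block. Of 215 genes named by the rule, 115 kept the call in all 21 settings, 100 lost it without some array, 64 of them also in some other setting, and 0 changed sign. The block cost 20 of the 215 their call and is no sign of pairing, since same-numbered arrays share only a number. Centring moved the median of all genes by 0.09 and quantile normalization by 0.03. Detection calls were not used here, so values near the offset have no known signal over background.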

Other observations

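Called genes that lie next to each other on a chromosome, with at most 50 kb between them, formed 150 pairs. Of these, 81 had the same direction (54%), and of the 19 in which both genes changed at least 2-fold, 11 did. Among the latter were Drd4, a dopamine receptor, and Deaf1, a transcription factor, with 711 bases between them (-1.76 and -1.64 after saline, -1.42 and -1.76 after caerulein), and the lipid droplet genes Plin4 and Plin5 (1.82 and 1.45, then 0.48 and 0.76). Pairs of opposite direction included Rab3d and Tmem205, with 2809 bases between them (-1.88 and 1.28), and Tmed6 and Terf2, a telomere protein, with 3755 bases (-1.63 and 1.44).

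Shares of called genes ranged over the autosomes and the X chromosome from 11.5% of 305 genes on chromosome 16 to 15.3% of 300 on the X chromosome, where 30 rose and 16 fell.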
